A study of Mus musculus with 6 samples.

Results

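The transcripts described here are those of 9 genes grouped under the name of T-cell quiescence factors, though not each is known chiefly for that role. The genes are the BTG/TOB genes Tob1, Tob2, Btg1 and Btg2, the ETS factors Ets1, Fli1 and Elf4, the forkhead factor Foxp1, and Tsc1. They were chosen by name, and all 9 were found among the 13564 genes of the deposited normalized table. The RNA came from 3 Foxo1TKO and 3 Foxo1Ctrl cultures of naive CD4 T cells (CD4N cells) on the C57BL/6J background. Foxo1TKO mice are Foxo1 fl/fl and express Cre from Cd4, and Foxo1Ctrl mice are Foxo1 fl/fl without Cre. The study places the deletion of Foxo1 at the CD4+CD8+ stage in the thymus, so that CD4 and CD8 T cells both lose it. The presence of Cre and the deletion therefore cannot be told apart. The study's methods name a Foxp3-GFP reporter for mice of both genotypes. According to the labels, 50000 CD4N cells from lymph nodes were stimulated over 4 days by anti-CD3 (0.1 µg per ml), with 250000 splenocytes of CD3eKO mice as presenting cells that bring no T cells of their own. The study's methods, for cultures of this kind set up to follow proliferation, give more CD4N cells than splenocytes, so the ratio of the 2 in these cultures is uncertain. The study describes the Foxo1TKO mice as young adults. Nothing in the sources used here says that the splenocytes were removed before RNA extraction, or that the 3 cultures of a genotype came from separate mice, so the p-values below measure the spread between these cultures.

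A naive T cell is kept small, mobile and out of the cell cycle by factors that must be maintained, and quiescence is therefore regarded as an active state. BTG and TOB proteins bind the CCR4-NOT complex and direct it to shorten the poly(A) tails of messenger RNAs, and they restrain cell proliferation. Foxp1 is needed for naive T cells to stay quiescent and binds the same enhancer of Il7r as Foxo1, with the opposite effect. Elf4 restrains the proliferation of CD8 T cells, Ets1 is required for T-cell survival and normal responses, and Fli1 limits effector T-cell responses. Tsc1 stabilizes Tsc2 in the complex that switches off Rheb, the activator of mTORC1.

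The library totals ranged from 14783853 to 19675407 rounded expected counts, and the test covered the 13691 genes that reached 10 counts in 3 or more libraries. Foxo1 itself was present at 46.5 to 115 TMM-normalized counts in Foxo1TKO and at 1529 to 2285 in Foxo1Ctrl libraries (log2 fold change −4.45), in the direction of the labels. The T-cell markers Cd3e, Cd3d, Cd3g, Cd4, Cd5, Lck and Cd28 were detected in both genotypes, with summed counts of 111221 to 116145 in Foxo1TKO and 129152 to 146985 in Foxo1Ctrl libraries, and Cd28 alone among them was called (lower).

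Of the 9 quiescence factors, 4 were lower in Foxo1TKO cells (Fli1, Foxp1, Ets1 and Btg2) and none was higher. A call needed a Benjamini-Hochberg adjusted p below 0.05 over all genes and more than a 1.5-fold difference in edgeR's quasi-likelihood model. At an unadjusted p below 0.05 in edgeR, Tob2 was higher, and Tsc1 was lower beside the 4 called genes. DESeq2 called Tob2 as higher and did not call Tsc1. Among all genes tested, 23.0% met the call in edgeR, 11.8% as lower and 11.1% as higher. DESeq2 called 3694 of the 13691 genes, 1871 as lower and 1823 as higher. The share of all genes at an unadjusted p below 0.05 is not given here. The other 5 factors (Tob1, Tob2, Btg1, Elf4 and Tsc1) did not pass the call in edgeR. The log2 fold change was below 0 for 8 of the 9 genes, and for 49.4% of all genes tested. Its median was −0.71 over the 9 genes against 0.01 over all genes. The normalized counts did not overlap between the genotypes for 6 genes, of which 5 were lower and 1 (Tob2) was higher in Foxo1TKO cells. Among all genes tested 42.7% did not overlap, 21.2% being lower and 21.5% higher in Foxo1TKO cells.

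**Figure D1:**
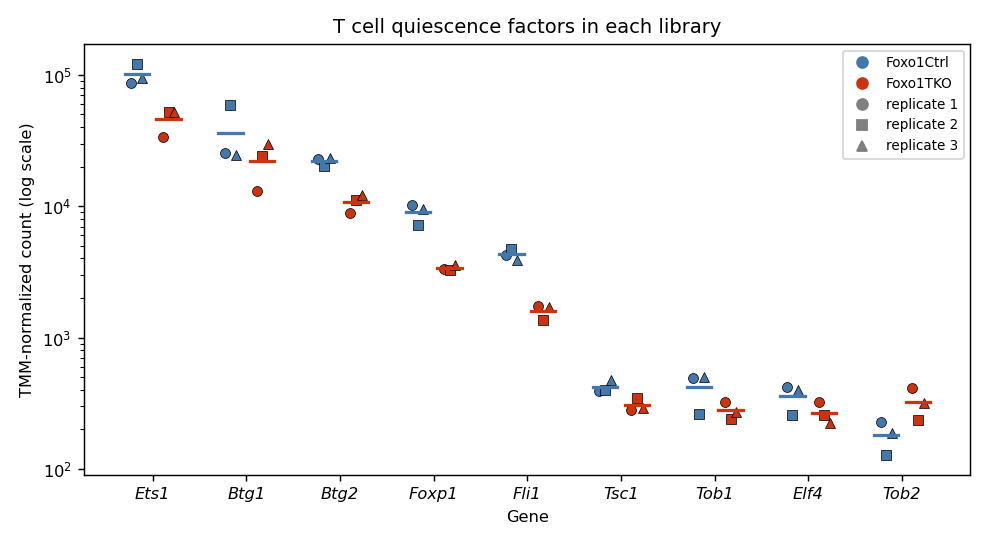
TMM-normalized counts (log scale) of the 9 quiescence factors in each library, with Foxo1Ctrl in blue, Foxo1TKO in red, one symbol shape per replicate number, and lines at the means of 3 libraries. The genotypes are separate for Ets1, Btg2, Foxp1, Fli1, Tsc1 and Tob2, and overlap for Btg1, Tob1 and Elf4.

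The BTG/TOB genes are described first. Of these, Btg1 and Btg2 encode small close relatives, whereas Tob1 and Tob2 encode longer relatives that also bind poly(A)-binding protein. The sequences upstream of Btg1 and Btg2 are shown because these abundant paralogs gave different calls and carried different motifs. They are the 250 bases before the RefSeq start on GRCm38.p6, read 5′ to 3′ on the strand of the gene. Capitals mark GTAAACA (or its reverse complement TGTTTAC), a forkhead motif that Foxo1 binds, and TGACGTCA, the cyclic AMP response element, which reads the same on both strands.

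Btg1, chr10:96616751-96617000, plus strand: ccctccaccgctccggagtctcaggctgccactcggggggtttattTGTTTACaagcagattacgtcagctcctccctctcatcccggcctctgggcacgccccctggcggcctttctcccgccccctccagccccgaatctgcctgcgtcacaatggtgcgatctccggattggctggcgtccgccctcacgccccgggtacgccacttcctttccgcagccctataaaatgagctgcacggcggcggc
Btg2, chr1:134079156-134079405, minus strand: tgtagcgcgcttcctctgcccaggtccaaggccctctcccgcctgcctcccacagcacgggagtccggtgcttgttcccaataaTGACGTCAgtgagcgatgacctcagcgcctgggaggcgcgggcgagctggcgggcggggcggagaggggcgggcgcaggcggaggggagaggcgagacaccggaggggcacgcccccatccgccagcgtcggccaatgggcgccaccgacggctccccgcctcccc

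The forkhead motif of Btg1 begins 204 bases before the start, and the response element of Btg2 166 bases before it. RefSeq promoter windows of 300 bases (250 before and 50 after a start) were matched by symbol for 7 of the 9 genes, in 10 windows, and not for Ets1 and Fli1. GTAAACA on either strand was found in the window of Btg1 only, and in 3.65% of all 32851 windows. TGACGTCA was found in that of Btg2 only, and in 1.79% of all windows. The ETS motif CCGGAAGT, searched on both strands, was in none of the 10 windows and in 3.89% of all windows. The motifs do not overlap one another in these windows, and a match describes letters, not binding.

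Btg2 (ENSMUSG00000020423, chromosome 1, 134075170 to 134079120, minus strand) is a p53-inducible antiproliferative gene. Its normalized counts were 8803, 11143 and 12163 in the Foxo1TKO libraries and 23033, 20385 and 23097 in the Foxo1Ctrl libraries. Each Foxo1TKO library lay below each Foxo1Ctrl library, and the fold difference was 2.07 (log2 fold change −1.05, standard error 0.17, 95% interval −1.44 to −0.66, adjusted p = 0.00373 in edgeR). Btg2 was called lower in every one of the 16 alternative fits, those that left out a library included.

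Btg1 (ENSMUSG00000036478, chromosome 10, 96617006 to 96622809, plus strand) had 13000, 24078 and 29510 counts in Foxo1TKO libraries and 25321, 58601 and 24695 in Foxo1Ctrl libraries. Replicate 2 of Foxo1Ctrl stood far above the other libraries, replicate 1 of Foxo1TKO far below them, and the remaining 4 libraries lay together, so the genotypes overlapped. The difference did not pass the test (log2 fold change −0.71, standard error 0.41, 95% interval −1.66 to 0.24, adjusted p = 0.259 in edgeR). Without replicate 2 of Foxo1Ctrl the log2 fold change was −0.16. The annotated copies Btg1-ps1 and Btg1-ps2 had 0 counts in each of the 6 libraries.

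Tob1 (ENSMUSG00000037573, chromosome 11, 94211454 to 94215495, plus strand) has been reported to fall when T cells are activated. It had 325, 240 and 270 counts in Foxo1TKO libraries and 492, 263 and 501 in Foxo1Ctrl libraries. The low Foxo1Ctrl library was replicate 2, which lay within the range of Foxo1TKO. The log2 fold change was −0.59 (standard error 0.28, 95% interval −1.23 to 0.05, adjusted p = 0.169 in edgeR). Without replicate 2 of Foxo1Ctrl it was −0.82 and passed the call (adjusted p = 0.0238 in the same edgeR model).

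Tob2 (ENSMUSG00000048546, chromosome 15, 81848272 to 81858796, minus strand) was the only factor with a value above that of Foxo1Ctrl. It had 415, 234 and 314 counts in Foxo1TKO libraries and 225, 127 and 188 in Foxo1Ctrl libraries. Every Foxo1TKO library was above every Foxo1Ctrl library, by a narrow margin between replicate 2 of Foxo1TKO and replicate 1 of Foxo1Ctrl. The difference did not pass the call (log2 fold change 0.83, standard error 0.30, 95% interval 0.15 to 1.51, adjusted p = 0.0786 in edgeR), whereas it did with DESeq2's Wald test (adjusted p = 0.034). The antisense gene Gm49476, which overlaps an exon of Tob2, had 0 counts in each library.

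**Figure D2:**
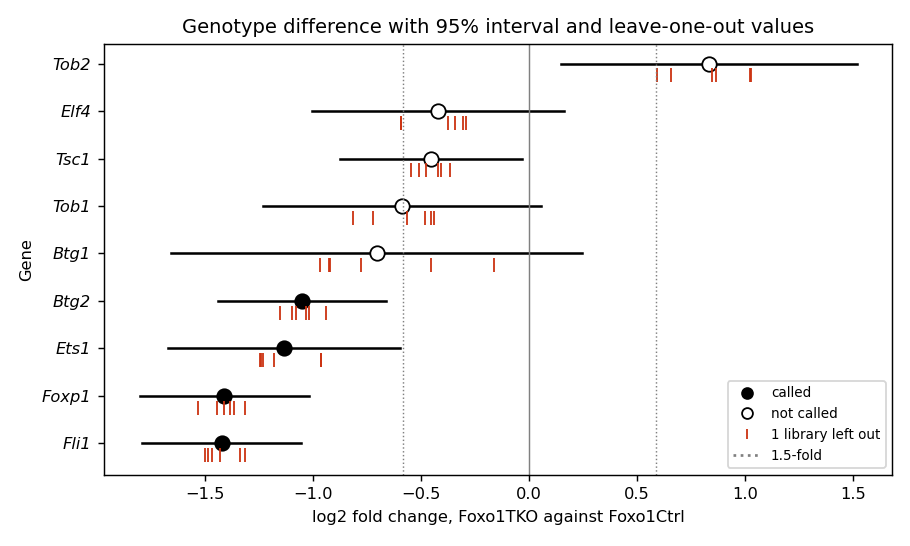
Log2 fold change of each quiescence factor in Foxo1TKO against Foxo1Ctrl cells, with its 95% interval from edgeR's fit (black line), filled circles for called genes and open circles for the others. Red ticks are the values when 1 library was left out, and dotted lines mark a 1.5-fold difference. The intervals of Fli1, Foxp1, Ets1 and Btg2 lie below 0 and past the 1.5-fold line, and the ticks of Btg1 spread from −0.97 to −0.16.

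Ratios taken within a library do not depend on how libraries are scaled to one another. They were computed from TPM values, which are per effective transcript length. The Tob2 to Tob1 ratio was 0.685, 0.530 and 0.630 in Foxo1TKO libraries and 0.248, 0.257 and 0.204 in Foxo1Ctrl libraries. Each Foxo1TKO ratio was above each Foxo1Ctrl ratio, in a design too small to pass the threshold (difference of the log2 ratio 1.38, exact two-sided permutation p = 0.1, the smallest that 3 against 3 libraries can give, and 0.3 after Benjamini-Hochberg adjustment over the 3 pairs compared). The Btg2 to Btg1 ratio was 1.27, 0.866 and 0.773 in Foxo1TKO and 1.70, 0.652 and 1.76 in Foxo1Ctrl libraries, which overlap (exact permutation p = 0.4, adjusted 0.5). Fli1 to Ets1 ratios overlapped too, at 0.0408 to 0.0809 against 0.0599 to 0.0771 (exact permutation p = 0.5, adjusted 0.5).

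**Figure D3:**
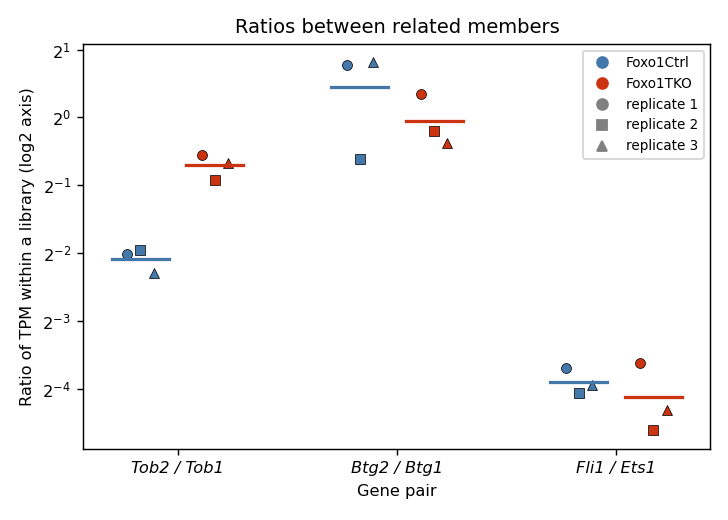
Ratios of TPM values between related quiescence factors within each library, on a log2 axis, with Foxo1Ctrl in blue, Foxo1TKO in red and lines at the arithmetic means of 3 libraries. The Tob2 to Tob1 ratio is 0.615 ± 0.0786 in Foxo1TKO and 0.236 ± 0.0285 in Foxo1Ctrl libraries (mean ± SD, n = 3), whereas the genotypes overlap for the other 2 ratios.

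Summed over the 6 genes of the BTG/TOB family, Btg3 and Btg4 included, the level was 467, 626 and 683 TPM in Foxo1TKO and 991, 1149 and 981 TPM in Foxo1Ctrl libraries. Each Foxo1TKO library was below each Foxo1Ctrl library. Btg1 and Btg2 together made up nearly all of this sum in every library, while the share of Tob1 reached at most 2.39% and that of Tob2 at most 1.63%.

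Of the ETS factors, which share a winged helix-turn-helix domain that binds GGAA, the 2 more abundant fell. Ets1 (ENSMUSG00000032035, chromosome 9, 32636221 to 32757820, plus strand) had 33457, 52059 and 52531 normalized counts in Foxo1TKO libraries and 86486, 121977 and 94213 in Foxo1Ctrl libraries. The genotypes did not overlap, and in each the libraries differed among themselves, replicate 1 of Foxo1TKO being the lowest of all and replicate 2 of Foxo1Ctrl the highest. The fold difference was 2.19 (log2 fold change −1.13, standard error 0.23, 95% interval −1.67 to −0.60, adjusted p = 0.0106 in edgeR). By mean count, Ets1 stood at the 99.9th percentile of the genes tested.

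Fli1 (ENSMUSG00000016087, chromosome 9, 32422204 to 32542861, minus strand) had 1739, 1367 and 1703 counts in Foxo1TKO libraries and 4286, 4693 and 3911 in Foxo1Ctrl libraries. The spread within a genotype was small beside the gap between the genotypes. At a fold difference of 2.68 its fall was the largest among the 9 genes by a small margin over Foxp1, which fell more without replicate 2 of either genotype (log2 fold change −1.42, standard error 0.16, 95% interval −1.79 to −1.06, adjusted p = 0.000797 in edgeR). With effective transcript length taken into account the margin was wider, at −1.42 for Fli1 and −1.18 for Foxp1. Fli1 and Ets1 are neighbours transcribed away from each other, with 93359 bases and no annotated protein-coding gene between them in GENCODE M21.

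Elf4 (ENSMUSG00000031103, chromosome X, 48411046 to 48463132, minus strand) had 325, 256 and 222 counts in Foxo1TKO and 422, 258 and 397 in Foxo1Ctrl libraries. Replicate 2 of Foxo1Ctrl again lay within the range of Foxo1TKO, and the difference did not pass the test (log2 fold change −0.42, standard error 0.25, 95% interval −1.003 to 0.16, adjusted p = 0.271 in edgeR). Over the 26 ETS genes found in the files the summed level was 781, 934 and 878 TPM in Foxo1TKO libraries against 1576, 1697 and 1681 TPM in Foxo1Ctrl libraries, without overlap. Ets1 held 63.7% to 75.1% of this sum in Foxo1TKO and 76.4% to 83.0% in Foxo1Ctrl libraries.

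Foxp1 (ENSMUSG00000030067, chromosome 6, 98925338 to 99522721, minus strand) had 3329, 3293 and 3544 counts in Foxo1TKO libraries and 10219, 7230 and 9584 in Foxo1Ctrl libraries. The 3 Foxo1TKO values were close to one another and all below the lowest Foxo1Ctrl value, that of replicate 2. Its fold difference was 2.66 (log2 fold change −1.41, standard error 0.17, 95% interval −1.80 to −1.02, adjusted p = 0.0011 in edgeR). Foxp1 made up at least 97.5% of the summed TPM of the 4 FOXP genes in each library. Gm20696, an annotated gene on the same strand that shares exon sequence with Foxp1, had 80, 96 and 67 rounded expected counts before TMM scaling in Foxo1TKO and 340, 291 and 461 in Foxo1Ctrl libraries. The split of reads between the 2 genes is uncertain, and the number of shared reads was not measured.

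RSEM also gives, per gene and library, the mean length of the gene's transcripts weighted by their abundance, which moves when the mixture of isoforms moves. For Foxp1 this length was 3126, 3169 and 3122 bases in Foxo1TKO libraries and 3731, 3782 and 3465 bases in Foxo1Ctrl libraries. Each Foxo1TKO value was below each Foxo1Ctrl value, a difference of −14.2% between the means. It was the only one of the 9 genes without overlap in this measure, where 10.3% of all genes tested did not overlap, so the count of members is near the background. By size, 551 of 13691 genes (4.02%) had a mean length that fell as much or more, and 36 of 3499 (1.03%) among genes with a mean of at least 1000 counts. Foxp1 has 31 transcript models of 336 to 7177 bases in GENCODE M21, and the deposited files do not say which of them changed. With the effective length of each library taken into account, the log2 fold change of Foxp1 was −1.18 and the call held (adjusted p = 0.00312 in edgeR).

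**Figure D4:**
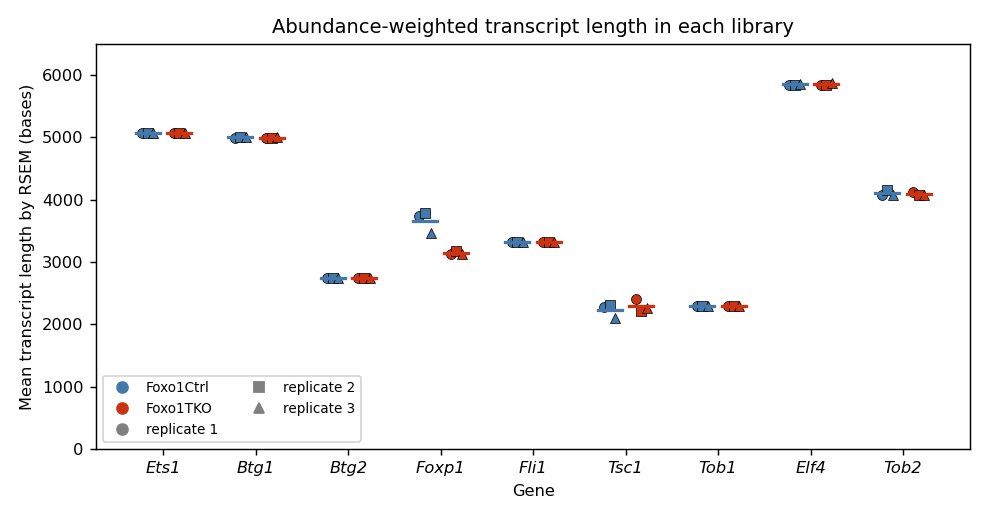
Abundance-weighted mean transcript length (bases, from RSEM) of the quiescence factors in each library, with Foxo1Ctrl in blue, Foxo1TKO in red and lines at the means of 3 libraries. Foxp1 is shorter in each Foxo1TKO library (3122 to 3169 bases) than in any Foxo1Ctrl library (3465 to 3782 bases), and the genotypes overlap for the other genes.

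Tsc1 (ENSMUSG00000026812, chromosome 2, 28641228 to 28691167, plus strand) had 282, 347 and 293 counts in Foxo1TKO and 393, 400 and 471 in Foxo1Ctrl libraries. The groups did not overlap, but the gap between replicate 2 of Foxo1TKO and replicate 1 of Foxo1Ctrl was narrower than the range within either genotype. The difference did not pass the call (log2 fold change −0.45, standard error 0.18, 95% interval −0.87 to −0.03, adjusted p = 0.111 in edgeR).

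Levels can be compared between genes per transcript length, as TPM. In Foxo1Ctrl cells the order was Ets1 (1306 ± 102 TPM), Btg2 (556 ± 93.6), Btg1 (464 ± 193), Foxp1 (169 ± 48.2), Fli1 (87.2 ± 4.91), Tsc1 (13.3 ± 3.04), Tob1 (12.97 ± 5.16), Elf4 (4.13 ± 1.36) and Tob2 (3.00 ± 1.09; mean ± SD, n = 3). Neighbours in this order whose libraries overlapped were Btg2 and Btg1, Tsc1 and Tob1, and Elf4 and Tob2. In Foxo1TKO cells Ets1 (618 ± 106 TPM) stood first, followed by Btg1 (197, 328 and 376 TPM in the 3 libraries), Btg2 (275 ± 22.1), Foxp1 (75.9 ± 5.39) and Fli1 (34.0 ± 5.93). Tsc1 (9.64 ± 1.32 TPM), Tob1 (8.81 ± 2.04), Tob2 (5.51 ± 1.91) and Elf4 (3.18 ± 0.914) came last, each overlapping its neighbour. The factors that passed the call were thus 4 of the 5 most abundant in Foxo1Ctrl cells, and the mean counts of the 4 rare ones ran from 180 to 422.

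**Figure D5:**
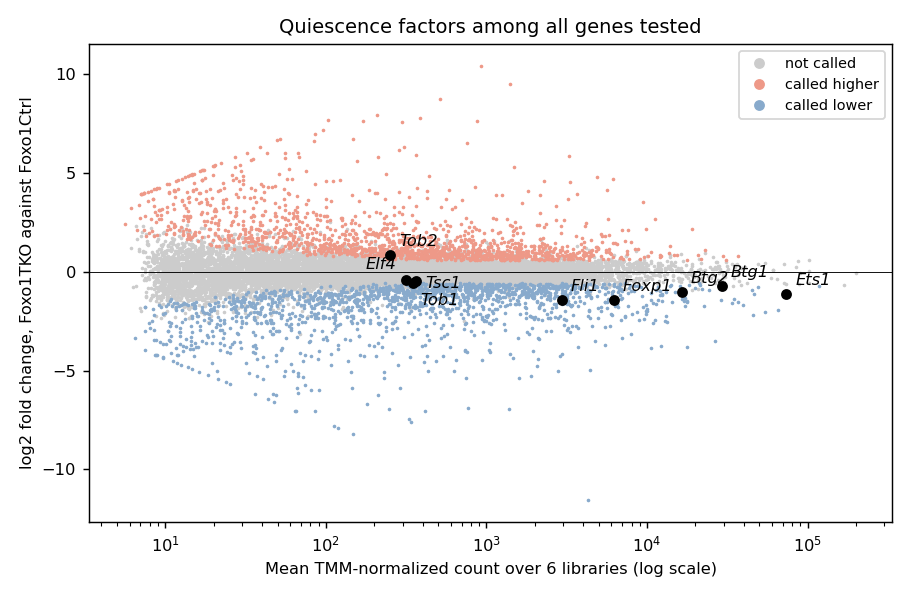
Log2 fold change of Foxo1TKO against Foxo1Ctrl cells over the mean TMM-normalized count (log scale) for the 13691 genes tested, with called genes coloured and the 9 quiescence factors in black. Fli1, Foxp1, Btg2 and Ets1 lie among the called lower genes at high counts, and Tob2 lies above 0 among the genes not called.

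In bulk RNA, fewer cells of one type and less RNA per cell cannot be told apart. Of the B-cell markers (Cd79a, Cd79b, Ms4a1, Pax5, Ighm, Ighd and Blk), 4 of the 6 tested fell, as the 4 factors did. These were Cd79a, Cd79b, Ms4a1 and Ighm. Blk (log2 fold change −1.15) and Ighd (0.17, in the other direction) were not called. The summed counts of the B-cell markers were 5251 to 6281 in Foxo1TKO and 13183 to 21883 in Foxo1Ctrl libraries, most of it from Ighm. None of the 7 listed was at 0 in all libraries. Per length, Ighm was at 211 to 309 TPM in Foxo1TKO and 497 to 1016 TPM in Foxo1Ctrl libraries, above Fli1 and Foxp1 in each group, and the plasma-cell gene Jchain was at 17.6 to 44.2 and 74.7 to 103 TPM. Pax5 reached at most 0.15 TPM, Ms4a1 2.65 TPM and Cd79b 15.3 TPM in any library, against 84.3 TPM or more for Fli1, 113 TPM or more for Foxp1 and 1204 TPM or more for Ets1 in Foxo1Ctrl libraries. Both plasma-cell markers tested, Jchain and Mzb1, fell too, with sums over the 3 listed of 348 to 950 against 1656 to 2506 counts. The summed markers of myeloid cells (85.1 to 149 in Foxo1TKO and 81.2 to 150 in Foxo1Ctrl libraries), dendritic cells (146 to 204 and 153 to 265) and erythroid cells (124 to 229 and 159 to 259) overlapped between the genotypes, as did those of CD8 T cells (91.2 to 145 and 144 to 161). The summed NK-cell markers did not overlap (1464 to 2018 against 523 to 1213), and Eomes was the only one of the 4 tested that rose. Eomes alone was at 1227 to 1341 counts in Foxo1TKO and 204 to 344 in Foxo1Ctrl libraries. Gzma, Klrb1c and Klre1 overlapped between the genotypes. The study names Eomes among the transcripts that were higher in its activated T cells without Foxo1. None of the genes in these lists was at 0 in every library. The part of these other cells in the levels of the quiescence factors was not tested.

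Genes that work with the 9 factors were taken from lists. Among relatives of BTG/TOB and the deadenylation machinery, 20 of 21 were tested, of which 2 rose, 3 fell and 15 did not pass (median log2 fold change 0.01). Cnot6l, a catalytic deadenylase subunit of CCR4-NOT, fell from 3774 ± 410 to 1515 ± 70.5 counts (log2 fold change −1.32), and Zfp36l2, which brings the complex to AU-rich messenger RNAs, from 1413 ± 515 to 319 ± 46.3 (−2.14). Pabpc4, a poly(A)-binding protein, rose from 234 ± 68.7 to 710 ± 21.6 (1.59). None of Cnot1, the scaffold, and the other deadenylase subunits Cnot6, Cnot7 and Cnot8 passed, with log2 fold changes of −0.04 to 0.14.

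Of the other ETS factors 10 of 24 were tested, and Elk3 alone passed, rising from 366 ± 92.4 to 703 ± 87.0 counts (log2 fold change 0.94). Elf1, a relative of Elf4, had −0.51, with an adjusted p of 0.0295 in edgeR and a fold under 1.5. None of the 11 other forkhead factors tested passed the call in edgeR (median log2 fold change −0.45), against 3 at an unadjusted p below 0.05 (1 higher and 2 lower) and 2 with DESeq2 (1 in each direction). Foxp4, a partner of Foxp1, was a rare transcript with a log2 fold change of 0.78.

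In the list of the TSC complex and the mTORC1 pathway, 35 of 38 genes were tested, and 2 rose, 4 fell and 29 did not pass (median log2 fold change 0.09). The partners of Tsc1 were not called: Tsc2 had 184 ± 15.5 counts in Foxo1TKO and 180 ± 45.8 in Foxo1Ctrl libraries (log2 fold change 0.04), and Tbc1d7 had 453 ± 8.85 and 309 ± 32.2 (0.55, a fold under 1.5). Fnip1, a partner of folliculin, fell from 1099 ± 113 to 603 ± 124 counts (−0.87), and Eif4ebp1, the translation repressor that mTORC1 phosphorylates, from 658 ± 30.3 to 371 ± 15.9 (−0.82). Eif4e, the cap-binding protein it restrains, rose from 2975 ± 612 to 5109 ± 780 (0.78).

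Of 11 other genes tested that are linked to T-cell quiescence, 7 fell, 3 rose and 1 did not pass (median log2 fold change −1.31). This list holds genes already known to need Foxo1, so its direction is no independent evidence. Klf2, a factor for naive T-cell quiescence and homing, had 5.92, 1.75 and 0 counts in Foxo1TKO libraries and 650, 643 and 667 in Foxo1Ctrl libraries (log2 fold change −7.46). Slfn2, whose loss ends T-cell quiescence, fell from 9722 ± 3865 to 2230 ± 999 (−2.12), and Cdkn1b, the cyclin-dependent kinase inhibitor p27, from 1150 ± 251 to 304 ± 49.1 (−1.92). Runx1 and Rbl2 rose (0.78 and 0.62).

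Of 5 genes that the factors are known to act on, 3 fell, 1 rose and 1 did not pass. Klf2 and Klf4 are also in the list before this one, and Foxo1 itself acts on Il7r. The count is therefore no independent readout of the 9 factors. Il7r, which Foxp1 represses and Foxo1 activates, fell from 8646 ± 2804 to 770 ± 119 counts (log2 fold change −3.49). Il2, restrained by Tob1, fell from 53.2 ± 24.5 to 10.3 ± 6.01 (−2.28). The genes that Elf4 activates went apart, Klf2 falling as above and Klf4, a rare transcript, rising from 6.01 ± 3.12 to 26.49 ± 9.999 (1.99). Ccnd1, a target of BTG/TOB proteins, was rare, at 9.21 ± 8.22 and 8.08 ± 6.34 counts (0.18).

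Of 20 proliferation genes, all tested, 6 rose, none fell and 14 did not pass in edgeR (median log2 fold change 0.62). At an unadjusted p below 0.05 there were 11 higher and 0 lower, and DESeq2 called 8 higher and 0 lower. Examples are Mcm5 (492 ± 108 to 1382 ± 578 counts, log2 fold change 1.49), Mcm6 (3624 ± 584 to 7896 ± 792, 1.12) and Cdk1 (218 ± 85.3 to 448 ± 69.4, 1.04). Mki67 had −0.12 and did not pass. These transcripts are levels at 4 days and give no number of divisions. In cultures of this kind the study followed divisions with a dye, and it reported clearly less proliferation of Foxo1-deficient cells.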

How the data were processed

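RNA-seq libraries of 3 Foxo1TKO and 3 Foxo1Ctrl cultures were grouped by their titles. The authors used STAR 2.7.6a on the Ensembl GRCm38 reference and counted genes with RSEM 1.3.1, adjusting the counts of reads that map to several loci. Strand use is not given in the sources used here. The deposited expected counts were rounded. The deposited TPM values and transcript lengths (bases) are RSEM's. The deposited normalized signal, made by the authors with DESeq2, served for alternatives.

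Tests used edgeR 4.0.16 (TMM, glmQLFit, glmQLFTest, prior count 1) in R 4.3.3 on 13691 genes, with genotype as the only term. Calls needed an adjusted p under 0.05 and a fold over 1.5. DESeq2 1.42.0 and limma 3.58.1 were alternatives. The fits were tested on simulated counts. Counts are TMM-normalized, as mean ± SD. GENCODE M21 on GRCm38 gave positions, with 13679 of the tested IDs matched. Figures were drawn with matplotlib 3.10.9.

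The 9 genes and the lists were chosen with earlier results of these data known. Genes named beside them are up to 3 called genes per list with a mean of at least 100 counts and the largest change. Cnot1, Cnot6, Cnot7, Cnot8, Elf1, Foxp4, Tsc2, Tbc1d7, Il2, Klf4, Ccnd1, Runx1, Rbl2 and Mki67 were named after their values were seen. Same-numbered libraries were not treated as pairs. Of the marker lists, 2 genes are not reported here, and the sums leave them out.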

Additional observations from a re-analysis of the deposited data

How the results depend on the processing

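Fli1, Foxp1, Ets1 and Btg2 were called lower in each of the 16 alternatives, and the sign of all 9 genes held in each. Their lowest and highest log2 fold changes were −1.499 and −1.31 for Fli1, −1.53 and −1.16 for Foxp1, −1.25 and −0.96 for Ets1, and −1.15 and −0.94 for Btg2. Tob1 was called only without replicate 2 of Foxo1Ctrl, and Tob2 only with DESeq2 and with the replicate block. Btg1, Elf4 and Tsc1 were called in none. When each library was left out, 4 to 5 of the 9 genes and 1854 to 3321 genes in all were called, against 3144. The lowest was without replicate 2 of Foxo1TKO, and without replicate 1 of Foxo1Ctrl it was 2031. Same-numbered libraries had correlated deviations of 0.43, 0.20 and −0.11, so the numbers were not taken as pairs. For its cytometry of cultures of this kind, the study compared the genotypes by a paired t test, each pair being an experiment. Nothing in the sources used here says that RNA libraries sharing a number came from the same experiment, so pairing stays possible. With the replicate block, 3318 genes and 5 of the 9 were called, Tob2 (adjusted p = 0.0237 from edgeR) being the addition, and not every library correlated best with its own number. The cause was not tested. The standard error of the log2 fold change ran from 0.16 (Fli1) to 0.41 (Btg1) over the 9 genes.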

Other observations

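Genes whose pattern over the 6 libraries was most like that of Fli1, the called factor with the largest fall when all 6 libraries were used (Foxp1 fell more without replicate 2 of Foxo1Ctrl, −1.53 against −1.34, and without replicate 2 of Foxo1TKO, −1.38 against −1.31), were sought among all genes tested by the root mean square difference of log2 counts centred on each gene's mean. Ttyh1 (0.102 on the log2 scale), Inpp1 (0.111) and Rab26 (0.117) came closest. Inpp1, an inositol phosphatase, had a mean of 1124 counts in Foxo1TKO and 2794 in Foxo1Ctrl cells, whereas Ttyh1 (14.8 and 38.1) and Rab26 (14.1 and 40.5) were rare transcripts.

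Replicate 2 of Foxo1Ctrl stood apart from the other 2 Foxo1Ctrl libraries in the quiescence factors, and not in one direction. Relative to the mean log2 value of its genotype it was higher for Btg1 (0.82) and Ets1 (0.29) and lower for Tob1 (−0.61), Tob2 (−0.46), Elf4 (−0.44) and Foxp1 (−0.30). Replicate 1 of Foxo1TKO was low for Btg1 (−0.69) and Ets1 (−0.43) and high for Tob2 (0.41). Neither departure was limited to these factors. The chi-square per degree of freedom between replicate 2 of Foxo1Ctrl and replicates 1 and 3 was 95.04 and 91.61. Between replicates 1 and 3 it was 14.02. For replicate 1 of Foxo1TKO it was 52.19 and 86.63, against 16.97 between replicates 2 and 3. Cd4 had 2410 counts in replicate 2 of Foxo1Ctrl, and 8386 and 6310 in replicates 1 and 3. In Foxo1TKO replicates 1, 2 and 3 it had 7730, 3719 and 2441 counts, so a similar spread was present in both genotypes. Deviations of replicate 2 of Foxo1Ctrl correlated at −0.45, 0.20 and 0.30 with those of Foxo1TKO replicates 1, 2 and 3. The 2 departures may thus not be separate, and their cause was not tested.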
